A study of Mus musculus with 42 samples.

Results

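The Bcl2 family holds the proteins that decide whether a cell keeps its mitochondria intact, and 10 of its genes were followed here through the radiation response of transformed mouse pre-B cells. They were the survival members Bcl2, Bcl2l1, Mcl1 and Bcl2a1a, the effector Bak1, and the BH3-only members Bcl2l11, Bid, Bad, Bik and Bmf. Members were found by their gene symbol in the platform annotation. Of the 10 genes, 9 had probe sets of their own, out of 18193 genes with such probe sets on the array. These 9 genes had 33 probe sets, of which 31 lay above the median signal of their own array on at least 3 of the 42 arrays and were tested. The 2 others were 1 of 4 probe sets of Bcl2l1 and 1 of 3 of Bik. Bcl2a1a had no probe set of its own: 3 probe sets were shared with its near-identical copies, among them Bcl2a1b and Bcl2a1d, 1 of these was tested, and its values belong to no single gene.

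RNA of 21 cell lines, 3 of each of 7 genotypes, was hybridized to Affymetrix arrays: each line gave 1 array of untreated cells and 1 of cells harvested 2 h after a gamma-ray dose of 1 Gy. The lines came from bone marrow of mice aged 3 to 5 weeks and were immortalized by retroviral v-abl, a viral oncogene that keeps early B cells dividing. All 21 lines carried the Em-Bcl2 transgene, in which an immunoglobulin heavy-chain enhancer drives Bcl2 in B cells, so survival signalling was altered in the WT lines as well. The labels used here do not give the species of the transgene's coding sequence, and which Bcl2 probe sets read it was not tested. The genotypes were WT and lines with mutations in genes of the response to DNA double-strand breaks. Atm-/- lines lack the kinase that starts signalling from breaks, and Scid lines are mutant for Prkdc, whose kinase product takes part in rejoining ends. Mre11A/A lines carry a mutant allele of the nuclease that binds and processes broken ends. 53bp1-/-, H2ax-/- and Mdc1-/- lines lack proteins of the chromatin around a break. Untreated cells were mock-treated and harvested at the same 2 h, and the dose was given at 0.72 Gy per min. The arrays of a group are called biological replicates, and nothing in the labels says whether the lines of a genotype came from separate mice, so p-values measure the spread between these lines.

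Survival members such as Bcl2, Bcl-xL (the product of Bcl2l1) and Mcl1 hold the effectors Bak1 and Bax in check at the mitochondrial outer membrane. BH3-only proteins sense stress and either bind the survival members or act on the effectors. Bim, the product of Bcl2l11, is known as a main killer of lymphocytes, and Puma and Noxa, the products of Bbc3 and Pmaip1, are classic p53 targets after DNA damage.

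Values are MAS5 signals as deposited, and changes are differences of log2(signal + 16) between the irradiated and the untreated array of a line, which understate the change of dim probe sets. Tests came from limma fitted over 28260 probe sets, with the cell line as a block for changes, and a result is called where the Benjamini-Hochberg adjusted p is under 0.05. Probe sets of 1 gene share their target and are not replicates of each other. Counts of members out of 31 are counts of probe sets, not of genes. Array medians lay between 62.3 and 82.7 apart from those of irradiated Atm-/- line 2 (115) and irradiated WT line 4 (103). All 9 pre-B markers found on the array, among them Vpreb1, Igll1 and Cd79a, were expressed, with sums over the markers of 56558 to 102362 per array. The T cell markers Cd3e, Cd3d, Cd3g and Cd4 did not pass the filter, nor did Trat1, whereas Cd8a (20.6 to 161) and Cd2 (440 to 5415) did, and the mean of the T cell list was under the array median on 0 of 42 arrays. The erythroid and stromal marker lists averaged under the array median on all 42 arrays, and the myeloid list on 26, with Fcgr3 reaching 2620 in untreated Scid line 1.

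Bcl2l11 rose after irradiation and was the member with the clearest change. In the mean response of the 6 genotypes other than Atm-/-, all 5 of its probe sets rose, by 0.68 to 0.76 on the log2 scale, or 1.61-fold to 1.69-fold. In each of these probe sets the signal was higher after irradiation in all 18 lines of those 6 genotypes. The other called member in this comparison was Mcl1, which fell slightly, so that 9 of 31 member probe sets were called where 11.2% of all probe sets were. These 9 probe sets came from only 2 genes. When each of the 9 genes was represented by its brightest tested probe set, 1 of 9 was called, near the share of all probe sets. The median change of the 31 was 0, as was the median of all 28260.

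The probe set of Bcl2l11 with the highest signal, 1456005_a_at, shows the pattern by line. In WT lines 1, 3 and 4 its signal went from 8711, 7767 and 8561 to 13848, 14603 and 10159. In Scid lines 1 to 3 it went from 5340, 7191 and 6163 to 12828, 10637 and 11654. The untreated and irradiated arrays did not overlap in either genotype. In Mre11A/A lines 1 to 3 it went from 3097, 3342 and 4274 to 5926, 4804 and 6284, and in 53bp1-/- lines 1 to 3 from 8383, 7032 and 5356 to 9367, 8629 and 10435. In H2ax-/- lines 1 to 3 it went from 7523, 5268 and 4619 to 11924, 8170 and 11677. These groups did not overlap either, although the irradiated Mre11A/A lines all stayed below every untreated WT line. In Mdc1-/- lines 1 to 3 the signal went from 5831, 2765 and 3554 to 11349, 4797 and 8677, a rise in every line across overlapping levels. In Atm-/- lines 1 to 3 it went from 10104, 7080 and 4931 to 7786, 8090 and 7235, so that 1 line was lower and 2 were higher, and the irradiated lines lay within the untreated range.

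**Figure D1:**
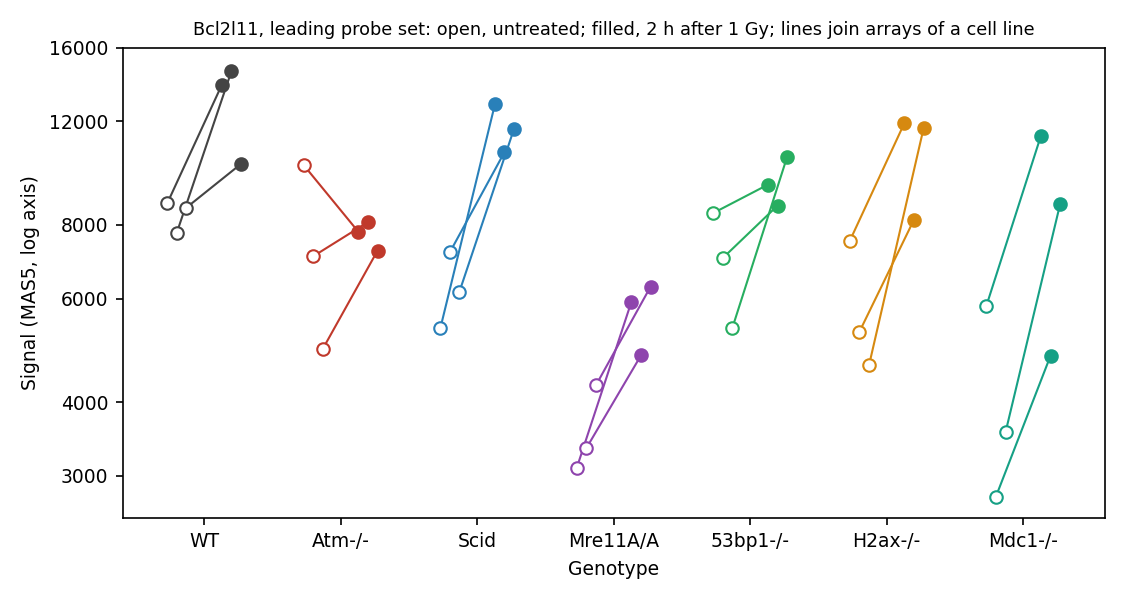
Signal (MAS5, log axis) of Bcl2l11 probe set 1456005_a_at by genotype, with open circles for untreated arrays, filled circles for arrays taken 2 h after 1 Gy, and a line joining the arrays of each cell line. All 18 lines outside Atm-/- go up, and the untreated Mre11A/A lines, between 3097 and 4274, have the lowest untreated mean.

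Over all 5 Bcl2l11 probe sets, the mean change of the 6 genotypes had standard errors of 0.05 to 0.07, and limma's adjusted p lay between 7e-08 and 1.3e-10. The changes of the probe sets correlated with each other at r of 0.5 to 0.89 over the 21 lines. All 5 remained called without any single line and also without the block, where the line pairing is ignored. In that fit 5 of 31 member probe sets were called in this comparison, against 2.68% of all probe sets.

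Genotype by genotype, Bcl2l11 was called up in 4 of 5 probe sets in WT, Scid, 53bp1-/- and H2ax-/- lines and in 5 of 5 in Mdc1-/- lines. Of the brightest tested probe sets of the 9 genes, 1 was called in each of Scid, H2ax-/- and Mdc1-/- lines. In the other genotypes 0 of 9 were called. In WT lines the called rises were 0.59 to 0.80, and probe set 1456005_a_at, at 0.61, missed the threshold with an adjusted p of 0.062 in limma. With 1 called Mcl1 probe set, WT had 5 of 31 members called against 2.24% of all probe sets, and Scid had 4, with rises of 0.62 to 0.91, against 1.71%. The 53bp1-/- lines had 4 called members, with rises of 0.65 to 0.79, against 1.17%, and the H2ax-/- lines had 4, with rises of 0.66 to 0.88, against 1.07%. The largest fitted rises were in Mdc1-/- lines, at 0.97 to 1.16, where 7 of 31 members were called against 3.57%. In Mre11A/A lines the fitted changes of Bcl2l11 were 0.40 to 0.67 and positive in all 3 lines for each probe set, but no member was called by limma, where 0.046% of all probe sets were. At an unadjusted p under 0.05, 6 of 31 members passed in Mre11A/A lines, where 1323 of all 28260 probe sets did. Without the block 0 members and 0 of all probe sets were called in these lines.

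These counts within a genotype rest on 3 lines and on the block. Without the block, 0 members were called in WT, Atm-/-, Scid, 53bp1-/- and H2ax-/- lines and 2 in Mdc1-/- lines. Calls fell over the whole array as well. The shares of all probe sets called were then 0.0814% in WT, 0.00708% in Atm-/-, 0.0743% in Scid, 0.0142% in 53bp1-/-, 0.0425% in H2ax-/- and 0.389% in Mdc1-/- lines. Without WT line 1 or 3 the WT count went from 5 to 3 or 1, and without Scid line 1 or 3 the Scid count went from 4 to 0 or 2. Without H2ax-/- line 3 that count went from 4 to 0, and without 53bp1-/- line 2 or 3 it went from 4 to 2. The 5 Bcl2l11 calls in Mdc1-/- lines were kept without any single line.

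**Figure D2:**
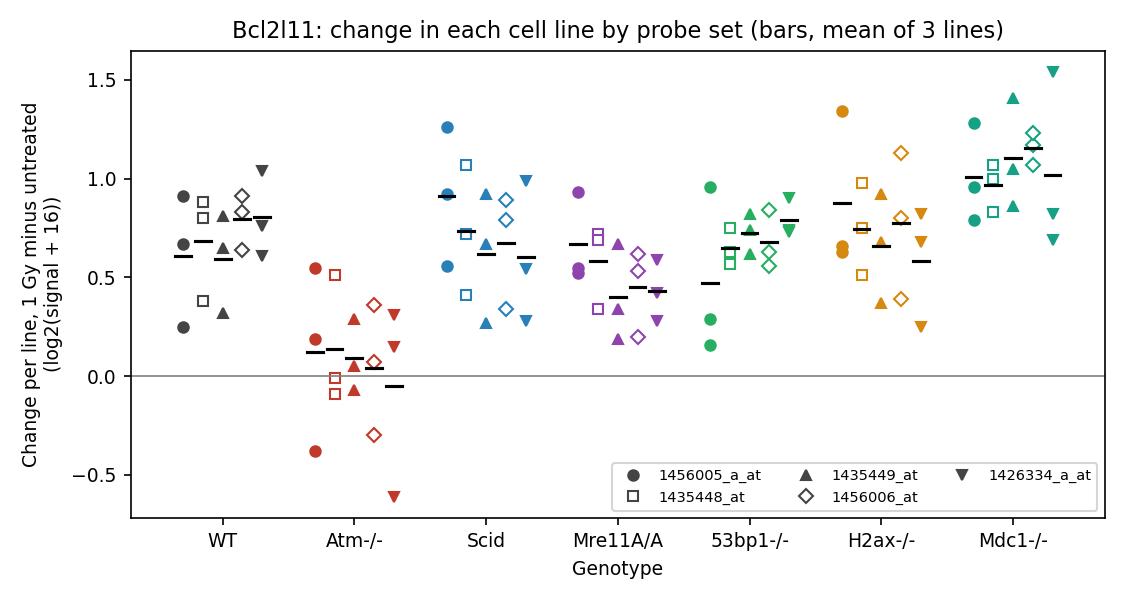
Change of log2(signal + 16) after 1 Gy in each line for the 5 Bcl2l11 probe sets, by genotype, with 1 symbol per probe set and a bar at the mean of 3 lines. Bars lie near 0 for Atm-/- (-0.05 to 0.14) and between 0.40 and 1.16 elsewhere.

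In Atm-/- lines the fitted changes of Bcl2l11 were -0.05 to 0.14, and none of its probe sets was called. The difference from the other genotypes was tested directly. Against the mean of the other 6 responses, 4 of the 5 Bcl2l11 probe sets were lower in Atm-/- lines, by -0.59, -0.60, -0.71 and -0.75, with limma's adjusted p of 0.014, 0.017, 0.0073 and 0.026. The brightest, 1456005_a_at, differed by -0.64 with an adjusted p of 0.062 and was not called. With 1 probe set of Bid, 5 of 31 members were called in this comparison, all lower, against 2.8% of all probe sets. Of the 18 lines of the other genotypes, 14 to 16 changed by more than the highest Atm-/- line, depending on the probe set. No Bcl2l11 difference was called without the block, where 0.0283% of all probe sets were. With the block, the calls of 2 probe sets were lost without Atm-/- line 1 or 2, of 1 without line 2 and of 1 without line 3. The member count was 3 without Atm-/- line 2 and 8 without WT line 4, the lines whose irradiated arrays had high medians.

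Against WT alone, the Bcl2l11 response of Atm-/- lines was lower in 1 of 5 probe sets, 1456006_at, by -0.75 (limma adjusted p = 0.047). With the same Bid probe set, 2 of 31 members were called against 1% of all probe sets. These calls lie close to the threshold: the Bcl2l11 call was kept in 7 of 21 fits that each left out 1 line, the Bid call in 4 of 21, and neither without the block. The responses of the other 5 mutants differed from WT in 0 of 31 members each, in limma, with background shares of 0%, 0%, 0%, 0% and 0% for Scid, Mre11A/A, 53bp1-/-, H2ax-/- and Mdc1-/-. At an unadjusted p under 0.05, 1, 2, 2, 1 and 3 members passed in these comparisons, and without the block none was called after adjustment. Of all 28260 probe sets, 1535, 2249, 1489, 1302 and 1407 passed the same unadjusted threshold, and without the block 0 were called. For 1456005_a_at the intervals of the difference from WT ran from -0.19 to 0.80 for Scid, -0.43 to 0.56 for Mre11A/A and -0.09 to 0.90 for Mdc1-/-. The 6 comparisons share the WT arrays. In the F test among the 7 responses, Bcl2l11 1456006_at was the 1 member called (adjusted p = 0.048), where 0.541% of all probe sets were, and leaving out 1 line at a time gave 0 to 2 called members.

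Without irradiation, Bcl2l11 was lower in Mre11A/A lines than in WT lines in 4 of 5 probe sets, by -0.81 to -1.23 (limma adjusted p from 0.0027 to 0.045). For 1456005_a_at the WT lines had 7767 to 8711 and the Mre11A/A lines 3097 to 4274, with no overlap, and the Mdc1-/- lines had 2765 to 5831, lower by -1.11 (adjusted p = 0.017). From highest to lowest, the untreated means of this probe set were 8346 in WT, 7371 in Atm-/-, 6924 in 53bp1-/-, 6231 in Scid, 5803 in H2ax-/-, 4050 in Mdc1-/- and 3571 in Mre11A/A lines. Each neighbouring pair in this order overlapped. A second probe set, 1435449_at, was also lower in Mre11A/A (-1.04) and Mdc1-/- lines (-0.76). The calls of 1456005_a_at and 1435449_at in Mre11A/A lines were kept without any single line, whereas that of 1435448_at was kept in 8 of 21 such fits and the 2 calls in Mdc1-/- lines in 16 and 17. The sum of the T cell list, in which Cd2 reached 5415 and no other gene exceeded 161 on any array, ran from 4218 to 5556 in untreated Mre11A/A lines and from 794 to 4522 in WT lines. This is in the main a difference in Cd2, and its part in the Bcl2l11 result was not tested. In such bulk RNA, fewer cells of a type and less RNA per cell cannot be told apart.

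The 250 bases before the first of 2 RefSeq transcription starts of Bcl2l11 are shown because this was the member whose probe sets moved together. The gene lies on the plus strand at chr2:128126038-128162547 and the window at chr2:128125788-128126037 in GRCm38.p6. Capitals mark GGGCGG, the box bound by Sp1, and GTAAACA, the reverse complement of TGTTTAC, a forkhead motif; both strands were searched, and the capitals do not overlap each other.

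Bcl2l11: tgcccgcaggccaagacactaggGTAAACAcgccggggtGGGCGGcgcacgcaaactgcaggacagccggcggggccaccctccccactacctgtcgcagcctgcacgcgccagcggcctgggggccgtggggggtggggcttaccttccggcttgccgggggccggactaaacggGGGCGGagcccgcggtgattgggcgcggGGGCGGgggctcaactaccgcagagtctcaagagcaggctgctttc

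The window held 3 copies of GGGCGG and 1 of TGTTTAC, and none of CACGTG, of a p53 half-site or of an NF-kB site. In all 32851 RefSeq promoter windows of that length the shares with at least 1 match were 32.7% for GGGCGG, 3.17% for TGTTTAC, 6.02% for CACGTG, 7.13% for the p53 half-site and 7.25% for the NF-kB site. The Bcl2l11 window was 72% G and C against a median of 52.4%. The window before the second start of Bcl2l11 held 2 copies of GGGCGG and none of TGTTTAC. Among windows of the other members, TGTTTAC was in none, and Bcl2, whose signal showed no called change, had 7 copies of GGGCGG. A match describes letters and is no evidence of binding.

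Mcl1, a survival protein with a short half-life, fell slightly after irradiation. In the mean response of the 6 genotypes, 4 of its 6 probe sets fell, by -0.11, -0.15, -0.18 and -0.21 (limma adjusted p from 4.6e-05 to 0.028). The other 2, among them the brightest, 1448503_at, differed by -0.10 and -0.08 and were not called. For 1456381_x_at the WT lines went from 3179, 3118 and 3808 to 2586, 2405 and 3106, a fall of 0.32 (adjusted p = 0.011). The Mdc1-/- lines went from 2940, 2762 and 2600 to 2350, 2166 and 1959, a fall of 0.36 (adjusted p = 0.0024). In both genotypes every irradiated array lay below every untreated array. In Atm-/- lines the changes of this probe set were -0.09, -0.12 and 0.14, and no Mcl1 difference between Atm-/- and the other genotypes was called. None of the Mcl1 calls was kept without the block, where 1437527_x_at, the largest mean fall, had an adjusted p of 0.058. The mean fall of 1456243_x_at (-0.15) stayed called in 12 of 21 fits that each left out 1 line. The mean falls of 1416880_at, 1437527_x_at and 1456381_x_at stayed called in all 21. The call of 1456381_x_at in WT lines was lost without WT line 1 or 3, and that in Mdc1-/- lines without Mdc1-/- line 3.

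Bid, which links caspase-8 to the mitochondria after cleavage, was the member called in Atm-/- lines, where 1 of 31 members was called against 1.27% of all probe sets. Probe set 1448560_at went from 760, 551 and 571 to 645, 316 and 333 in Atm-/- lines 1 to 3, a fall of 0.59 (limma adjusted p = 0.022). In the 18 other lines it changed by -0.16 to 0.44, so that all of them lay above all 3 Atm-/- lines. The difference was -0.71 against the mean of the other 6 genotypes (adjusted p = 0.0054), kept without any single line, and -0.70 against WT (adjusted p = 0.049). The brightest Bid probe set, 1417045_at, differed by -0.32 (adjusted p = 0.11) and the third, 1447873_x_at, by 0.24, so that the 3 probe sets did not share a direction. The fall within Atm-/- lines was lost without Atm-/- line 2 or 3, and no Bid call was kept without the block. Line 2 is the line whose irradiated array had a median of 115, and without this line and WT line 4 the difference from the other genotypes was -0.62 (adjusted p = 0.03).

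**Figure D3:**
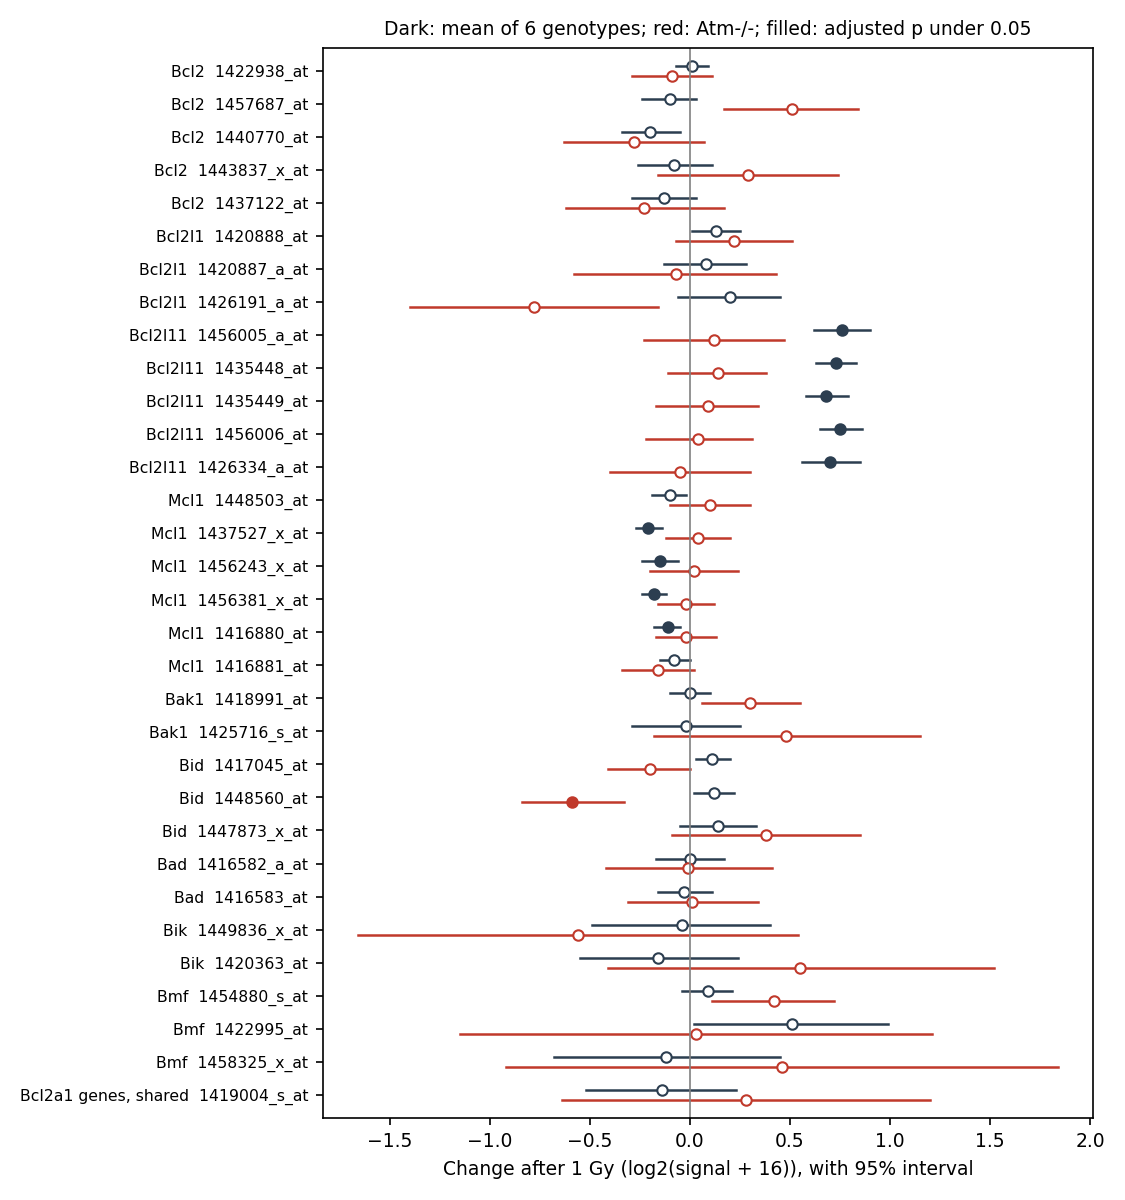
Change of log2(signal + 16) after 1 Gy with its 95% interval for the 31 tested member probe sets and the shared Bcl2a1 probe set, in the mean of the 6 other genotypes (dark) and in Atm-/- lines (red), filled where the adjusted p is under 0.05. Filled dark points are the 5 of Bcl2l11 near 0.7 and 4 of Mcl1 just below 0, and the 1 filled red point is Bid 1448560_at at -0.59.

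The remaining survival members showed no called change in any comparison after irradiation. The brightest Bcl2 probe set, 1422938_at, changed by 0.01 in the mean of the 6 genotypes, with an interval from -0.07 to 0.09, and in single lines by -0.27 to 0.38. Its untreated signal ran from 174 in Mdc1-/- line 2 to 1871 in H2ax-/- line 1, with overlap between all neighbouring genotypes. The other 4 Bcl2 probe sets changed by -0.08 to -0.20, and 1457687_at was higher in all 3 Atm-/- lines, by 0.21 to 0.93, without passing the test (adjusted p = 0.11). In untreated cells 1440770_at had 86.5 to 181 in WT lines, below 53bp1-/- (270 to 1033), H2ax-/- (447 to 1284) and Mdc1-/- lines (411 to 1035). Its other genotypes overlapped WT. For 1437122_at the WT lines (143 to 161) lay above the Mre11A/A lines (49.1 to 94.4). They lay below the H2ax-/- (265 to 494) and Mdc1-/- lines (249 to 387), with overlap elsewhere. No untreated Bcl2 difference from WT was called. Bcl2l1 1420888_at ranged from 661 to 1531 and changed by 0.13 (interval 0.01 to 0.25, adjusted p = 0.17). Its dimmer probe set 1426191_a_at differed by -0.78 in Atm-/- lines with an adjusted p of 0.21. The shared Bcl2a1 probe set 1419004_s_at lay between 6.04 and 215 and changed by -1.66 to 1.96 in single lines, with a mean of -0.14 and an interval from -0.52 to 0.23.

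Among the effector and the remaining BH3-only members, no change after irradiation was called. Bak1, which forms pores in the outer membrane, changed by 0 in its brighter probe set 1418991_at (interval -0.10 to 0.10). Bad, whose product is held inactive by phosphorylation, also had a mean change of 0 in 1416582_a_at (interval -0.17 to 0.17), though its lines differed. All 3 WT lines were higher, by 0.37 to 0.56, and all 3 Mdc1-/- lines lower, by -0.35 to -0.51. That difference, -0.89, had an unadjusted p of 0.0047 and an adjusted p of 0.95. Bmf 1454880_s_at, which ranged from 263 to 1001, changed by 0.09 (interval -0.04 to 0.21) and by 0.37 to 0.46 in Atm-/- lines (adjusted p = 0.16). Bik was dim, with signals of 1.66 to 179 in 1449836_x_at, and its changes of -1.60 to 1.65 in single lines give no direction.

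Besides Bcl2l11, untreated levels were called different from WT in 1 of 2 probe sets of Bad, and 1 dim probe set of Bak1 was called lower in Mre11A/A and H2ax-/- lines. Bak1 1425716_s_at had 114 to 147 in WT lines, 21.7 to 50.2 in Mre11A/A lines and 32.2 to 49.8 in H2ax-/- lines. All 6 of these mutant lines lay under the median of their own array, and the probe set was above the median on 21 of 42 arrays, so it passed the filter through the groups where it is high and no size is given for the difference. The brighter Bak1 probe set, 1418991_at, was above the median on all 42 arrays, differed from WT by 0.25 and 0.06 in these mutants and was not called. Bad 1416582_a_at was higher than in WT (320 to 336) by 0.59 in H2ax-/- lines (388 to 587, adjusted p = 0.032) and by 0.55 in Mdc1-/- lines (407 to 555, adjusted p = 0.037). The second Bad probe set, 1416583_at, differed by 0.09 and 0.41 without a call. Each Bad call was lost without any 1 of the 3 WT lines.

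The untreated members called against WT were 0 of 31 in Atm-/- lines in limma (0.0531% of all probe sets, 3 members at an unadjusted p under 0.05) and 0 in Scid lines (0.248%, 1 member). There were 5 in Mre11A/A (4.42%, 1 of them the dim Bak1 probe set), 0 in 53bp1-/- (4.36%, 7 members at an unadjusted p under 0.05), 2 in H2ax-/- (4.95%, 1 of them that of Bak1) and 3 in Mdc1-/- lines (6.61%). These percentages are shares after adjustment. At an unadjusted p under 0.05, 2873 of all 28260 probe sets passed in Atm-/-, 3211 in Scid and 5265 in 53bp1-/- lines. In the F test among untreated genotypes 4 members were called, 3 of Bcl2l11 and 1 of Bak1, where 16.5% of all probe sets were, so the members' share of 12.9% lay near the background. The first principal component of the untreated arrays, with 17.1% of the variance, set the 9 WT, Atm-/- and Scid lines (-70.9 to -16.2) apart from the 12 lines of the other genotypes (0.043 to 49.4). The called untreated differences of members all fell in the second set, and the part of this split in them was not tested.

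**Figure D4:**
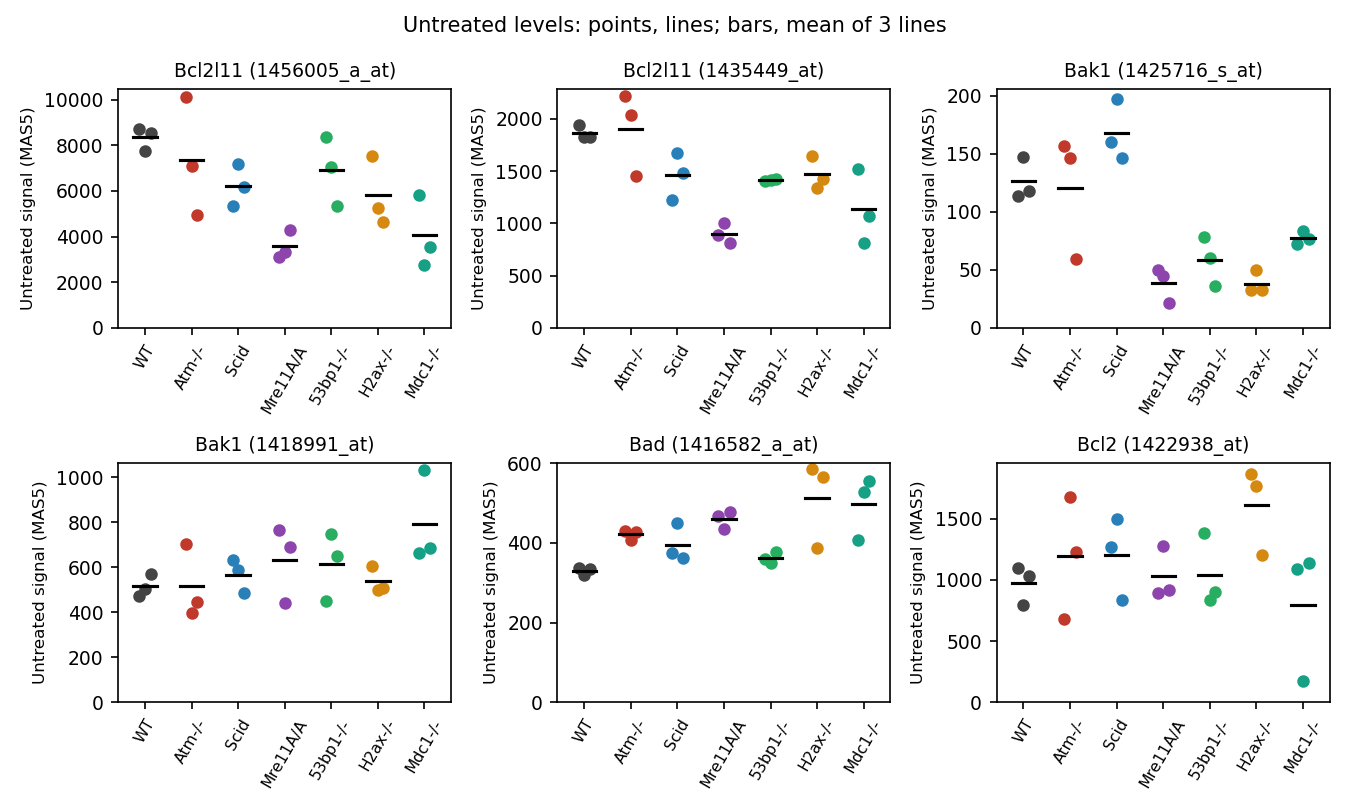
Untreated signal (MAS5, linear axis from 0) by genotype for 6 member probe sets, with a point per line and a bar at the mean of 3 lines. Bcl2l11 has its lowest mean in Mre11A/A lines in both probe sets, Bak1 1425716_s_at lies at 59.5 or above in WT, Atm-/- and Scid lines and at 83 or below in the others, and the brighter Bak1 probe set and Bcl2 show no such order.

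The other Bcl2 family genes gave 2 further BH3-only genes that rose. Of 16 genes on that list 9 were tested, and in the mean of the 6 genotypes 2 rose and 1 fell, where 11.2% of all probe sets were called, with a median of -0.01 over the 9 against 0 over all probe sets. Bbc3, which encodes Puma, rose by 1.49 (limma adjusted p = 1.4e-11), and it was also called up in Atm-/- lines, by 0.89 (adjusted p = 0.037), with the signal going from 223 ± 79 to 415 ± 92.3 (SD, n = 3). The smaller rise of Bbc3 in Atm-/- lines, -0.59 against the other genotypes, was not called (adjusted p = 0.17). Pmaip1, which encodes Noxa, rose by 1.21 in the mean of the 6 genotypes, and its change in Atm-/- lines differed from that mean by -1.22 (adjusted p = 0.023). Bnip3, a mitochondrial protein known from hypoxia, fell by 0.10, and Bcl2l12 fell by 0.59 in Atm-/- lines (adjusted p = 0.045). The Bcl2l12 difference from the other genotypes, -0.48, was not called (limma adjusted p = 0.098). In Atm-/- lines 2 of the 9 genes were called, against 1.27% of all probe sets. Without the block, 2 of 28260 probe sets were called in Atm-/- lines and 8 for Atm-/- against the other genotypes. Calls of genes on this list and on the lists below were not checked without the block or without single lines.

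Of 16 genes of the caspase machinery 14 were tested, and 2 rose and 2 fell in the mean of the 6 genotypes, against the same 11.2% of all probe sets, with a median of -0.01. Apaf1, the scaffold on which caspase-9 is activated, rose by 0.61 (limma adjusted p = 5.4e-10), and its change in Atm-/- lines differed from that mean by -0.56. Birc3, an inhibitor of apoptosis induced by NF-kB, rose by 0.91, and its change in Atm-/- lines differed from that mean by -1.06. Casp9 fell by 0.29 (limma adjusted p = 0.041), with changes from -0.81 in WT to 0.09 in Scid lines, and was called in no single genotype. Casp8 fell by 0.17, and by 0.43 in Atm-/- lines, but the difference of -0.26 was not called (limma adjusted p = 0.11). The genes that rose thus included 1 that promotes caspase activation and 1 that restrains apoptosis.

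Of 20 genes known to regulate members 18 were tested, and 3 rose and 1 fell in the mean of the 6 genotypes, again against 11.2%, with a median of 0.02. Foxo3, a forkhead factor known to activate Bcl2l11, rose by 0.79 (limma adjusted p = 9.2e-09), with -0.59 for Atm-/- against the others (adjusted p = 0.077, not called). The kinases Pim2 and Pim1, which phosphorylate Bad, rose by 0.82 and 0.33 and Pim3 fell by 0.21. The change of Pim2 in Atm-/- lines differed from the mean change of the other genotypes by -0.92 (adjusted p = 0.0057).

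As a reference for the response, the p53 targets Cdkn1a and Mdm2 and the NF-kB targets Relb and Cd40 were all called up in WT, Scid, 53bp1-/-, H2ax-/- and Mdc1-/- lines, and none in Atm-/- lines. In Mre11A/A lines only Cdkn1a of these 4 was called, by 1.33, beside 0.40 to 0.67 for Bcl2l11. Over the 21 lines the change of Bcl2l11 1456005_a_at was most like those of Mdm2, Arhgef6 and Cyb561a3 among 12362 other genes, each with r = 0.76. These lines share genotypes, so this is a description. Mdm2 changed by a median of 1.32 in the other 18 lines and by -0.15 to 0.08 in Atm-/- lines, Cyb561a3 by 0.43 and -0.35 to 0.26, and Arhgef6 by -0.05 and -0.26 to -0.02. For Cdkn1a, Relb, Cd40, Bbc3 and Foxo3 r with Bcl2l11 was 0.52, 0.50, 0.47, 0.43 and 0.36, for Casp9 it was 0.02, and for Foxo1, another forkhead factor, it was -0.54.

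**Figure D5:**
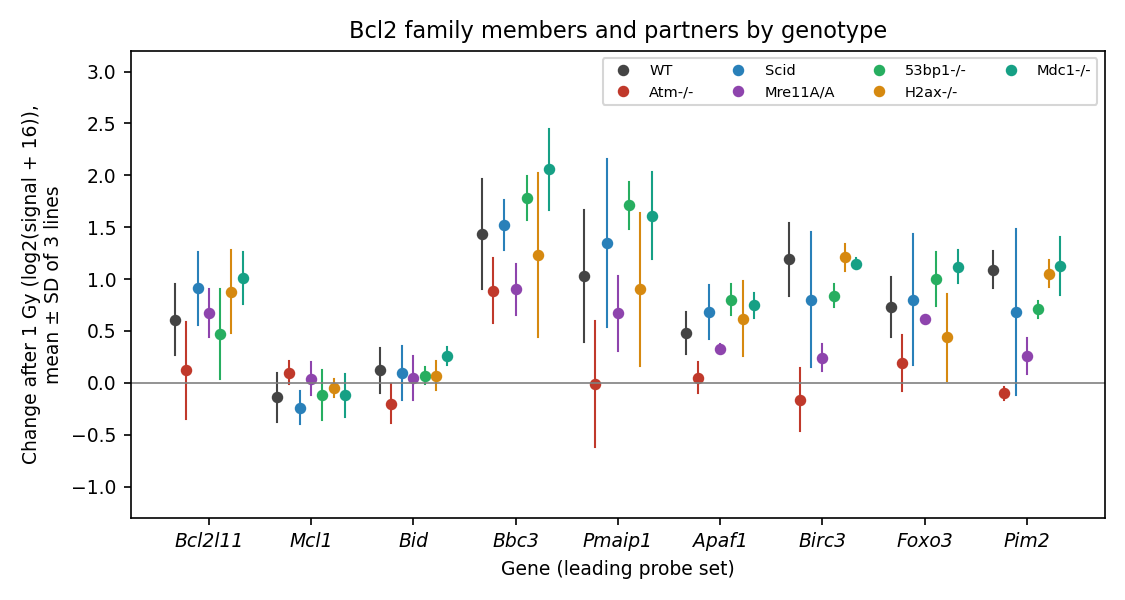
Change of log2(signal + 16) after 1 Gy, mean and SD of 3 lines, for 3 members and 6 partner genes by genotype. Bbc3 lies above 0 in every genotype including Atm-/- (0.89), Bcl2l11, Pmaip1, Apaf1, Birc3 and Pim2 lie near 0 in Atm-/- lines, and the brightest probe sets have genotype means of -0.24 to 0.10 for Mcl1 (1448503_at) and -0.20 to 0.26 for Bid (1417045_at, not the probe set called in Atm-/- lines).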

How the data were processed

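Signals of 42 Affymetrix arrays were used as intensity values on a linear scale, as the authors deposited them. The submitters' processing notes name MAS5, with a version not given in the sources used here, and the trimmed mean (2% off each end) was 500 on all arrays. RNA was labelled by the one-cycle protocol, per the labels' protocols. The number of arrays limits the precision.

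Among 45101 probe sets were 64 controls, 34945 with 1 platform symbol, 932 with several, which named no gene, and 9160 unnamed here. Probe sets above the median of their array on at least 3 arrays were kept (28260, with 12363 genes). A gene's brightest kept probe set stands for it on lists. In R 4.3.3, limma 3.58.1 was fitted to log2(signal + 16) with a variance trend. Responses used 42 arrays, 21 line effects and 7 genotype responses (14 residual degrees of freedom), and untreated levels 21 arrays and 7 means (14). P-values are two-sided, Benjamini-Hochberg adjusted over all kept probe sets within each comparison, with a threshold of 0.05, and intervals cover 95%. The fits were tested on simulated data.

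The line is a block because the series compares treated and untreated cells of each line. Deviations from group means correlated at 0.322 to 0.598 within all 21 lines and at most at -0.04 between lines of a genotype. Centring on the group mean pulls the between-line values below 0, so this contrast is no test of the block. The choice of the block, the members, the gene lists and the tests were made with earlier results of these data known, including counts with and without the block. Genes named with results were members, called genes of the lists, the 4 references, the 3 genes most like Bcl2l11 and cell type markers. Foxo1, a listed gene that was called in no comparison, was added by hand. Other settings tried were the block, pseudocounts of 1 and 64, quantile normalization, centring on the 75th percentile, the filter, 1 probe set per gene, no variance trend and left-out lines. Promoters and coordinates are from RefSeq (GRCm38.p6), with no entry for Bik. Files were read with data.table (version 1.17.8). Figures used matplotlib 3.10.9 and, for their tables, pandas 2.3.3 (numpy 2.4.6, Python 3.11.15).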

Additional observations from a re-analysis of the deposited data

Results flagged for a closer look

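The responses of Atm-/- lines differed from those of other genotypes, by limma's test of the difference itself, in 4 probe sets of Bcl2l11 and 1 of Bid. Against the mean of the other 6 genotypes, the difference was -0.75 for Bcl2l11 1426334_a_at, -0.59 for 1435448_at, -0.60 for 1435449_at and -0.71 for 1456006_at, and -0.71 for Bid 1448560_at. Against WT alone it was -0.75 for Bcl2l11 1456006_at and -0.70 for Bid 1448560_at. In the F test among the 7 responses, Bcl2l11 1456006_at had an adjusted p of 0.048. The Bcl2l11 probe sets share a target and count as 1 gene. Groups of 3 lines are too small for a test of single outlying lines.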

How the results depend on the processing

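Of the 51 called differences of single member probe sets, 0 reversed under any alternative. Quantile normalization, a pseudocount of 64 and the filter at 21 arrays (11 untreated) kept all 51, a pseudocount of 1 lost 2, centring 3, no filter 6, leaving out Atm-/- line 2 and WT line 4 together 9, and no variance trend 14. Of the 41 calls on responses, 34 were lost without the replicate block and 7 were kept, all of Bcl2l11. Of the 10 untreated calls, 2 were lost with all 42 arrays and the line as a random replicate block.

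Counts of called member probe sets moved by over 1.5 times as follows. Without the replicate block they were 0 in WT, Atm-/-, Scid, 53bp1-/- and H2ax-/- responses, 2 in Mdc1-/-, 5 in the mean of 6, 0 for Atm-/- against that mean, 0 over the 6 comparisons with WT and 0 in the F test of responses. Of all probe sets, that fit called 0.389% in Mdc1-/-, 2.68% in the mean of 6 and 0.0283% for Atm-/- against that mean. It called 0.0106% for Atm-/- against WT and 0.00708% in the F test. With 1 probe set per gene, and so fewer members tested, they were 1 in WT, Scid, H2ax-/-, Mdc1-/-, the mean of 6, Atm-/- against that mean and the F test of untreated levels, 3 over the untreated comparisons, and 0 in Atm-/-, 53bp1-/-, the comparisons with WT and the F test of responses. With no variance trend they were 0 in Atm-/-, 2 in H2ax-/-, 2 for Atm-/- against the mean, 0 against WT and 0 in the F test. Quantile normalization gave 2 in Atm-/-, against 1.86% of all probe sets. Centring and a pseudocount of 1 each gave 0 against WT and 0 in the F test of responses. No filter gave 0 against WT and 6 over the untreated comparisons. Without both high-median lines the counts were 1 against WT, 0 in the F test and 4 untreated. Apart from the smaller number of probe sets or lines, the cause was not tested.

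Leaving out 1 line at a time gave counts of 1 to 7 in WT, 0 to 1 in Atm-/-, 0 to 6 in Scid, 0 to 1 in Mre11A/A, 2 to 4 in 53bp1-/-, 0 to 4 in H2ax-/-, 5 to 9 in Mdc1-/-, 8 to 11 in the mean of 6, 3 to 8 for Atm-/- against the mean, 0 to 3 over the comparisons with WT, 0 to 2 in the F test of responses, 3 to 11 over the untreated comparisons and 3 to 6 in the F test of untreated levels.

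With 3 lines per genotype, dim probe sets such as those of Bik, Bcl2a1 and the lower ones of Bmf vary too much between lines for a change to be measured.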
